A study of Homo sapiens with 26 samples.

Results

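The genes described here are 10 secreted chemokines and cytokines that are widely used as readouts of NF-kB signalling: CXCL1, CXCL2, CXCL3, CXCL5, CXCL8, CCL20, IL1A, IL1B, IL6 and LIF. They were picked by symbol, and they and the further gene lists below were chosen with earlier results of these data known. Their counts and medians are set beside those of all genes as a description. The members were followed through every group of 3 established human pancreatic ductal adenocarcinoma cell lines in which the transcription factor HNF4A had been added or repressed. All 10 were listed in each of the 3 count tables, among 62778 gene identifiers in all. RNA was measured by poly(A) sequencing in 26 libraries, 6 from Panc10.05, 6 from BxPC3 and 14 from AsPC-1. In Panc10.05 and BxPC3 every group received doxycycline, the drug that switches on an inducible construct, and the groups are labelled P1-a2 or P2-a8, for an isoform from the P1 or the P2 promoter of HNF4A, and NC for the control (GFP-NC in the Panc10.05 titles, EV-NC in the BxPC3 titles). There were 2 libraries per group. The BxPC3 groups all received doxycycline at 500 ng/mL. In Panc10.05 the dose was 12.5 ng/mL for P2-a8 but 25 ng/mL for the other 2 groups, so isoform and dose cannot be told apart there. AsPC-1 cells, labelled ASPC1, all carried CRISPR interference, in which a guide RNA directs a silencing protein to a promoter. Its groups were sgP1 (guides sgP1E and sgP1J), sgP2 (sgP2D and sgP2G) and sgDual (sgDual2 and sgDual3), each with 2 libraries per guide and 4 in all, and the control guide sgNC with 2 libraries. All cells grew in RPMI-1640 with serum. Whether a group is 1 clone or a pool of cells is not given in the sources used here, and neither is whether replicates came from separate cultures, so p-values measure only the spread between these samples, which may be technical.

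NF-kB is a family of dimeric transcription factors held in the cytoplasm by inhibitor proteins of the IkB family. Signals from receptors such as those of interleukin-1 and TNF activate a kinase complex that has IkB degraded, after which the dimers enter the nucleus and bind short kappaB sites in promoters. CXCL1, CXCL2, CXCL3, CXCL5 and CXCL8 (interleukin-8) are CXC chemokines that attract neutrophils through the receptors CXCR1 and CXCR2. CCL20 attracts cells that carry CCR6, among them dendritic cells and T helper cells. IL1A and IL1B are interleukin-1 ligands that signal through IL1R1 and its partner IL1RAP, and so feed back on NF-kB itself. IL6 and LIF are cytokines whose receptors share the subunit IL6ST (gp130) and activate STAT3. In pancreatic cancer, tumour cell chemokines of this kind are known for drawing in myeloid cells, and tumour interleukin-1 and LIF for acting on the surrounding stroma.

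The 5 CXC chemokine genes lie in 1 cluster on chromosome 4 of GRCh38, between 73740506, where CXCL8 begins, and 74099293, where CXCL2 ends. IL1A and IL1B are neighbours on chromosome 2, starting at 112773915 and 112829751, and CCL20 lies on the same chromosome from 227805739 to 227817564. IL6 is on chromosome 7 from 22725884 to 22732002, and LIF on chromosome 22 from 30240447 to 30246851. Both IL6 and LIF overlap genes on the other strand (AC073072.1 and STEAP1B for IL6, AC004264.1 and LIF-AS1 for LIF). Since the strand setting of the counting is not given in the sources used here, their counts could include reads of those partners.

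Promoter windows of 250 bases before the start site were taken from RefSeq (GRCh38.p14) for 9 of the 10 members, all except LIF. The motif GGAATTTCC, a short kappaB core searched on both strands, was present in the windows of CXCL1, CXCL2, CXCL3, CXCL5 and CXCL8, against 0.413% of all 35116 windows. Only these exact letters were searched, so a window without a match may still hold a kappaB site with other letters. The 30 bases around each match are shown 5′ to 3′ on the gene's strand because these 5 neighbouring genes hold the same letters and yet did not all move together (CXCL2 rose in BxPC3 under P1-a2 where the other 4 fell), with the match in capitals.
CXCL1 (chr4:73869305-73869334, plus strand): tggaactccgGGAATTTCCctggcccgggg
CXCL2 (chr4:74099253-74099282, minus strand): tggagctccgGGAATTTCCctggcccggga
CXCL3 (chr4:74038748-74038777, minus strand): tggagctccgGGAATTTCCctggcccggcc
CXCL5 (chr4:73998748-73998777, minus strand): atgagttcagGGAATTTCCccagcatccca
CXCL8 (chr4:73740468-73740497, plus strand): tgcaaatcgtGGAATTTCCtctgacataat
The CXCL1, CXCL2 and CXCL3 stretches are nearly the same sequence, with 28 of 30 bases identical between CXCL1 and CXCL2 and between CXCL2 and CXCL3. Those of CXCL5 and CXCL8 share 14 of 30 bases with each other. An AP-1 site, TGACTCA, was found in the windows of IL1A and CXCL8, against 4.2% of all windows. CAAAGTCC, part of the HNF4 binding motif, was found among the members in the CXCL3 window alone, against 1.02% of all windows. A match describes letters in a window and does not show that a factor binds there.

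Library totals ran from 26079388 to 50662077 counts. HNF4A was at 0.058 to 1.08 CPM (counts scaled to a common library total) in the NC libraries of both induced lines, at 9.76 to 13 CPM under P1-a2, at 37.6 CPM under P2-a8 in Panc10.05 and at 12.6 to 14.2 CPM under P2-a8 in BxPC3. In AsPC-1 it was at 206 and 220 CPM with sgNC, 109 to 146 with sgP1, 76.7 to 93.9 with sgP2 and 3.19 to 13.6 with sgDual. All 5 epithelial markers examined (EPCAM, CDH1, KRT8, KRT18 and KRT19) were expressed in every group. PTPRC, which marks all leukocytes, was at no more than 0.137 CPM in any group. The 2 comparisons with NC in a line share the NC libraries, and the 3 comparisons with sgNC share the sgNC libraries, so their values are set side by side without a test of their likeness.

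The members differed widely in level within a line. On a scale per length (RPKM, which is CPM per kilobase of exon), LIF was the highest member in every group of Panc10.05, with group means from 7.35 to 9.90, and in every group of AsPC-1, with means from 27.1 to 31.7. In BxPC3 the order was led by IL1A, at group means from 38.2 to 52.9 RPKM, followed by IL1B, at 17.4 to 27.1 RPKM. IL6 was close to the detection floor throughout, with at most 10 counts in any library. Its group means were the lowest of the 10 members per length in every group except Panc10.05 NC, where CCL20 was lowest. CXCL1, CXCL8, IL1A and IL1B were lower in the Panc10.05 and AsPC-1 controls than in the BxPC3 controls in CPM, for example 0.696 and 0.956 CPM of CXCL8 in Panc10.05 NC, 1.08 and 0.706 CPM in AsPC-1 sgNC, and 36.6 and 31.3 CPM in BxPC3 NC. The 3 tables were scaled separately and no test was made across their controls. In bulk RNA, fewer cells that express a gene and less RNA per cell cannot be told apart.

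**Figure D1:**
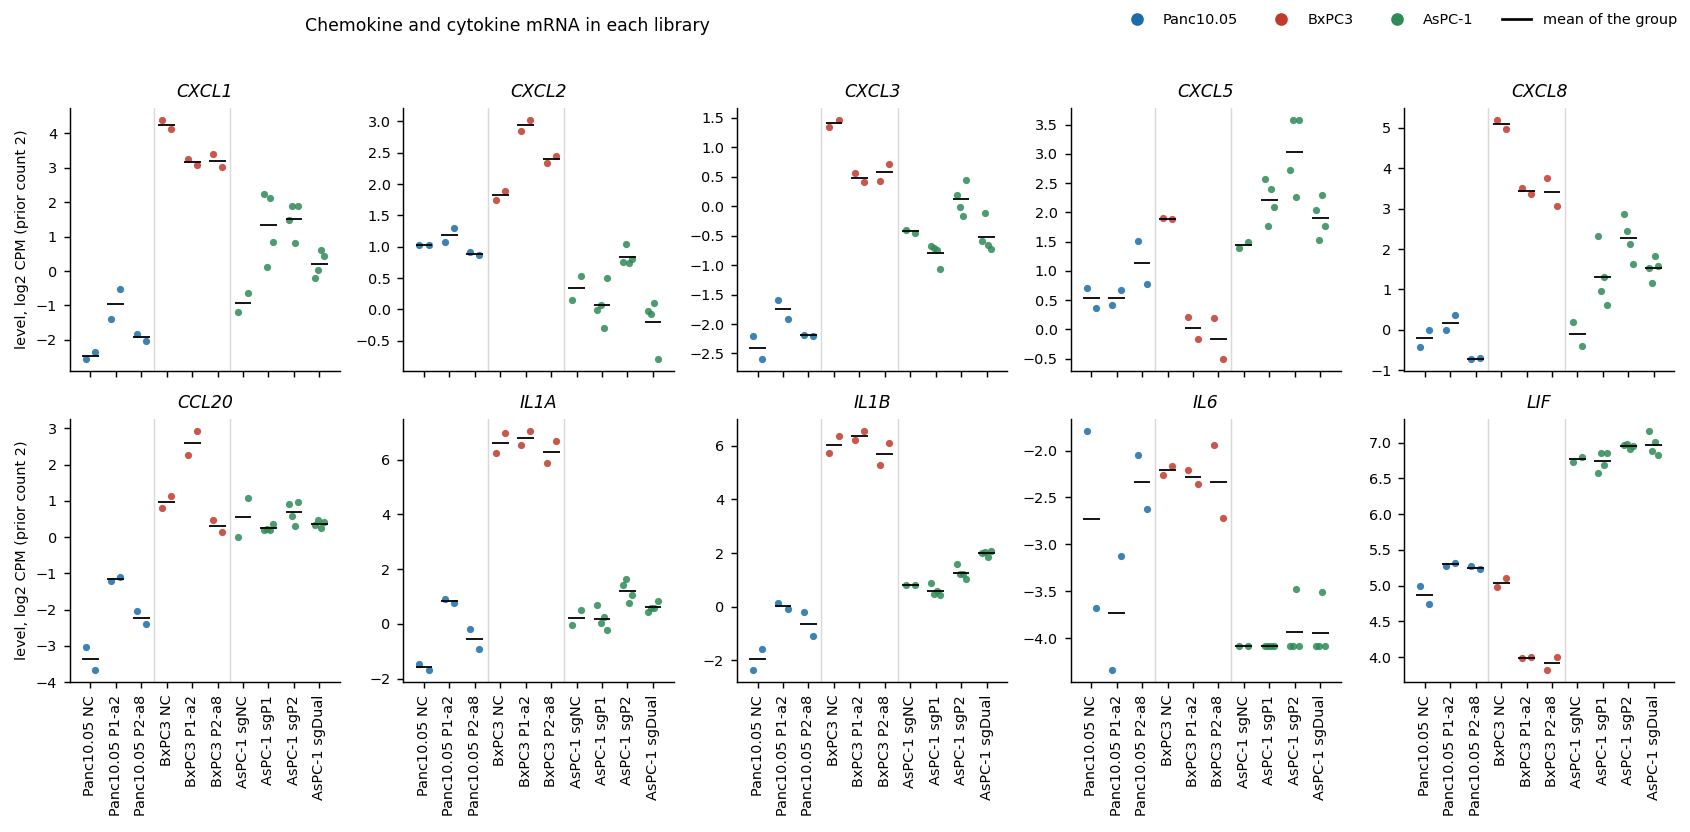
Level of each member in each library (log2 CPM with a prior count of 2), by group, for the 3 cell lines, with 1 point per library. In CPM before the log, LIF lies between 14 and 143 everywhere, whereas IL1A and IL1B reach 38.6 or more only in BxPC3 and stay at 4.14 or less in the other lines.

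The test was edgeR's quasi-likelihood test with p-values adjusted over all genes tested in a table and 0.05 as the threshold, and log2 fold changes are given ± their standard error (SE). In Panc10.05, 8 members had enough reads to be tested (CXCL3, at 4 to 11 counts, and IL6 did not), and 5 of them were higher under P1-a2 than in NC. This line responded broadly, with 62% of all genes called and 31.5% called higher, so the count itself is near the background, while the direction of the 5 was the same. The median over the 8 members was a log2 fold change of 1.17, against 0.02 over all genes tested. CXCL1 and CCL20 reached the filter on reads in their P1-a2 libraries alone (13 to 30 and 15 to 19 counts). They were thus tested because they were high there, and the count of 5 and the median depend in part on that filter.

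IL1A showed the clearest change in Panc10.05, from 0.312 and 0.261 CPM in NC to 1.85 and 1.63 CPM under P1-a2. Both P1-a2 libraries stood far above both NC libraries (log2 fold change 2.58 ± 0.35, adjusted p = 2.1e-08). IL1B was at 0.144 and 0.290 CPM in NC and at 1.05 and 0.891 CPM under P1-a2 (2.18 ± 0.44, adjusted p = 3.48e-05). Of the chemokines, CXCL1 was at 0.120 and 0.145 CPM in NC and at 0.334 and 0.652 CPM under P1-a2 (1.91 ± 0.56, adjusted p = 0.00313), with the P1-a2 libraries apart from each other by more than the NC libraries. CCL20 rested on 3 and 1 counts in NC and on 15 and 19 counts under P1-a2, which is a ratio of 7.62 with an exact 95% interval of 2.72 to 29.6 that covers counting error only. Its change was past the threshold (adjusted p = 0.00053), and the groups did not overlap for any of these 4 genes, as was so in this direction for 40.9% of all genes. LIF, the abundant member, went from 31.7 and 26.6 CPM to 38.8 and 39.8 CPM, a small rise without overlap (0.43 ± 0.08, adjusted p = 9.02e-06). CXCL2 (0.17 ± 0.21), CXCL5 (-0.01 ± 0.26) and CXCL8 (0.43 ± 0.30) were not past the threshold, and CXCL8 libraries overlapped at 0.696 and 0.956 CPM in NC and 0.95 and 1.24 CPM under P1-a2. Without P1-a2 replicate 2 the CXCL1 change was 1.32 with an adjusted p of 0.159, the highest of 10 alternatives whose lowest was 0.00225. The summed level of 6 immediate-early genes (FOS, FOSB, JUN, EGR1, ATF3 and IER2) was 487 to 536 CPM under P1-a2, 377 to 391 under P2-a8 and 298 to 303 in NC, and its part in these differences was not tested.

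Under P2-a8 in Panc10.05, 4 of the 8 tested members were higher than in NC (IL1A, IL1B, CXCL5 and LIF), where 46.2% of all genes were called and 23.7% were called higher. IL1A was at 0.833 and 0.479 CPM, above both NC libraries but with the 2 replicates apart (log2 fold change 1.21 ± 0.40, adjusted p = 0.0119). IL1B was likewise uneven, at 0.833 and 0.423 CPM (1.60 ± 0.47, adjusted p = 0.00431). CXCL5 was at 2.80 and 1.66 CPM against 1.59 and 1.25 CPM in NC (0.67 ± 0.24, adjusted p = 0.0213), so the second P2-a8 library was close to the control range. LIF was at 38.5 and 37.4 CPM (0.38 ± 0.08, adjusted p = 0.000108), nearly the level seen under P1-a2. CXCL8 had its lowest values of the line here, 0.556 and 0.563 CPM, without passing the threshold against NC (-0.55 ± 0.34, adjusted p = 0.197). CCL20, with 9 and 5 counts, was 3.24 times NC with an exact 95% interval of 1.02 to 13.5 for counting error (adjusted p = 0.107). Without P2-a8 replicate 1, the library in which IL1A, IL1B and CXCL5 were higher, LIF alone was past the threshold (adjusted p = 0.31, 0.219 and 0.627 for the other 3, the highest of their 10 alternatives). CXCL5 and IL1A were also not past it with DESeq2 (0.123 and 0.0545) or without NC replicate 2 (0.159 and 0.0647), nor was IL1B without NC replicate 1 (0.0831). The monocyte marker CD14 was at 1.05 to 1.61 CPM under P2-a8 and 0.464 to 0.504 CPM in NC, with PTPRC at 0 in this line, and its part was not tested.

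Compared directly, P1-a2 was above P2-a8 in Panc10.05 for IL1A (log2 fold change 1.36 ± 0.29, adjusted p = 0.000155), CXCL8 (0.97 ± 0.32, adjusted p = 0.0112) and CXCL1 (1.19 ± 0.50, adjusted p = 0.0469). CXCL5 was lower under P1-a2 (-0.68 ± 0.24, adjusted p = 0.018). These are 4 of 8 tested members, against 46.9% of all genes. CXCL1 and CCL20 were among the 8 only through their P1-a2 libraries. Without a filter on low counts the CXCL1 call was lost (adjusted p = 0.0832). LIF (0.05), CXCL2 (0.31 ± 0.21), IL1B (0.58 ± 0.35) and CCL20 (1.22 ± 0.55, adjusted p = 0.0624) did not differ past the threshold. The IL1A difference was past the threshold in all 10 alternatives. The other 3 calls were lost in some: CXCL1 in 6 (adjusted p up to 0.557, without P1-a2 replicate 2), CXCL5 in 3 (up to 0.582, without P2-a8 replicate 1, and 0.124 without P1-a2 replicate 1) and CXCL8 in 3 (up to 0.142, without P1-a2 replicate 2, and 0.0713 without P2-a8 replicate 1). For CXCL1, leaving out P2-a8 replicate 1 or 2 also ended the call (0.155 and 0.203).

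**Figure D2:**
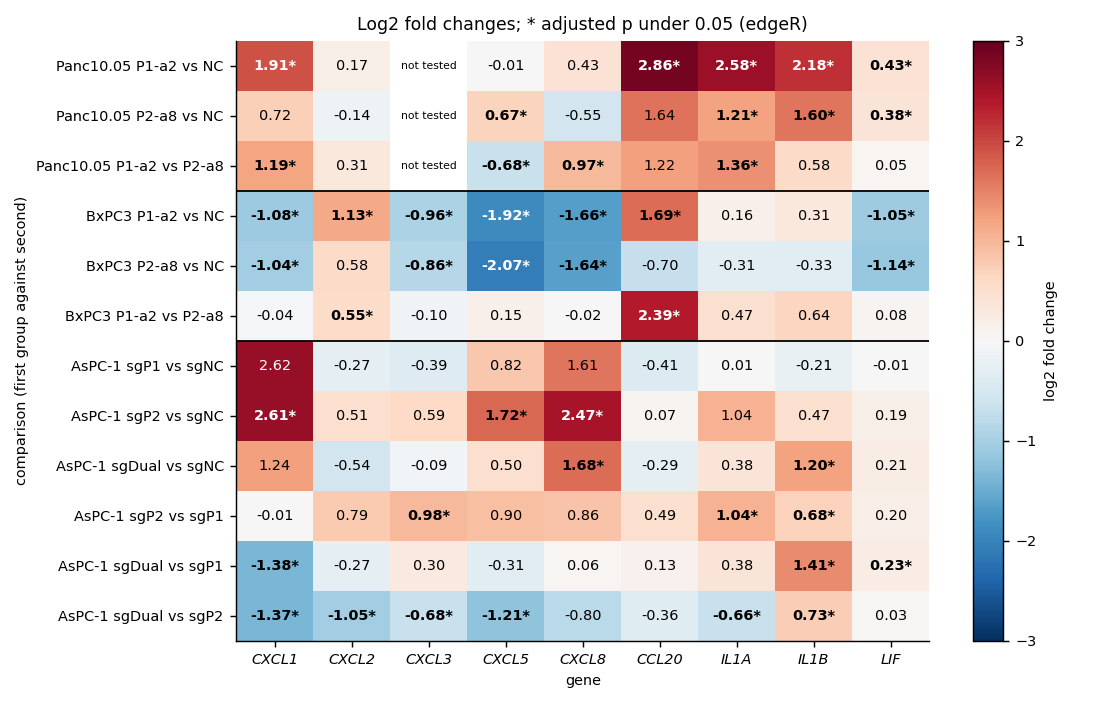
Log2 fold change of each tested member in each comparison (colour, with the value in each cell), with a mark where the adjusted p was under 0.05. Against NC in BxPC3 the CXC chemokines and LIF are on the lower side except CXCL2, while in Panc10.05 and AsPC-1 all marked cells against the controls are on the higher side.

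In BxPC3, where the doses were equal, 9 members were tested and 7 changed under P1-a2, 5 of them downward. Of all genes, 32% were called, 14.9% downward and 17.1% upward. CXCL8 went from 36.6 and 31.3 CPM in NC to 11.2 and 10.2 CPM (log2 fold change -1.66 ± 0.20, adjusted p = 0.000495). CXCL1 went from 20.9 and 17.3 CPM to 9.57 and 8.43 CPM (-1.08 ± 0.15, adjusted p = 0.000203). The groups did not overlap for either chemokine, which in this direction was true of 33.5% of all genes. CXCL5 was at 3.68 and 3.63 CPM in NC and at 1.10 and 0.838 CPM under P1-a2 (-1.92 ± 0.27, adjusted p = 0.000268), the largest fall among the members on the log2 scale. CXCL3 was at 2.49 and 2.70 CPM against 1.41 and 1.27 CPM (-0.96 ± 0.23, adjusted p = 0.00841). LIF fell from 31.4 and 34.6 CPM to 15.8 and 15.9 CPM (-1.05 ± 0.10, adjusted p = 1.27e-05). Against these falls, CXCL2 and CCL20 rose. CXCL2, the close relative of CXCL1 and CXCL3, was at 3.31 and 3.63 CPM in NC and at 7.15 and 8.08 CPM under P1-a2 (1.13 ± 0.15, adjusted p = 0.00021). CCL20 was at 1.67 and 2.13 CPM in NC and at 4.77 and 7.57 CPM under P1-a2 (1.69 ± 0.25, adjusted p = 0.000427), and all P1-a2 libraries were above all NC libraries for both genes (32.5% of all genes). CXCL2 and CXCL3 are close relatives, and of the 150-base windows of their annotated transcripts 1.83% for CXCL2 and 1.15% for CXCL3 matched the other gene exactly. No window of CXCL1 matched another gene.

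IL1A and IL1B, the members with the highest levels per length in BxPC3, differed widely between replicates. IL1A was at 76.2 and 125 CPM in NC, 91.8 and 133 CPM under P1-a2 and 58.9 and 103 CPM under P2-a8. IL1B was at 52.9 and 81.8 CPM in NC, 73.6 and 94.3 CPM under P1-a2 and 38.6 and 69.0 CPM under P2-a8. In each group the second replicate was the higher one, and neither gene differed past the threshold in any of the 3 comparisons (adjusted p between 0.391 and 0.84). Within each replicate number the order was P1-a2, NC and P2-a8 from high to low for both genes. With the replicate number as a block both passed in all 3 comparisons (adjusted p between 1.32e-06 and 0.0319), although same-numbered BxPC3 libraries deviated together only weakly over all genes (correlation 0.073 to 0.131). The CXCL3 fall under P1-a2 was lost without P1-a2 replicate 2 (adjusted p = 0.0574) and without NC replicate 2 (0.0601), where its 10 alternatives ranged from 0.00323 to 0.0601. Summed immediate-early genes were at 1177 to 1498 CPM under P1-a2, below NC at 1584 to 2512 CPM. LYZ, a marker of myeloid cells, was at 0.972 to 1.00 CPM under P1-a2 and 0.0744 to 0.109 CPM in NC. LUM, a marker of fibroblasts, was at 6.15 to 6.38 CPM under P1-a2 and 0.765 to 1.45 CPM in NC, and the part of any of these in these differences was not tested.

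P2-a8 in BxPC3 gave 5 falls and no rise past the threshold among the 9 members, in a comparison where 6.99% of all genes were called and 2.69% were called lower. The fallen genes were CXCL1, CXCL3, CXCL5, CXCL8 and LIF. CXCL8 was at 13.4 and 8.33 CPM (log2 fold change -1.64 ± 0.20, adjusted p = 0.00257) and CXCL1 at 10.5 and 8.02 CPM (-1.04 ± 0.15, adjusted p = 0.00133). Both were close to their levels under P1-a2. CXCL5 was at 1.09 and 0.643 CPM (-2.07 ± 0.27, adjusted p = 0.000905) and LIF at 14 and 16 CPM (-1.14 ± 0.10, adjusted p = 3.71e-05). CXCL3, at 1.29 and 1.59 CPM, was only just past the threshold (-0.86 ± 0.23, adjusted p = 0.0489). CXCL2 was at 5.0 and 5.42 CPM, above both NC libraries (0.58 ± 0.16, adjusted p = 0.0506). CCL20, at 1.32 and 1.04 CPM, was below both NC libraries without passing the threshold (-0.70 ± 0.30, adjusted p = 0.216). CXCL1, CXCL5, CXCL8 and LIF were past the threshold in all 10 alternatives. CXCL3 was not with DESeq2 (0.148), with only P2-a8 and NC fitted (0.0529) or without any 1 of the 4 libraries (0.0837 to 0.258), and CXCL2 was past it without a filter on low counts (0.0209). The fibroblast marker LUM was at 6.15 to 6.26 CPM under P2-a8 and 0.765 to 1.45 CPM in NC, with all 5 fibroblast markers summing to 18.5 to 18.7 and 12.3 to 13.4 CPM, and their part was not tested.

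The isoforms differed from each other in BxPC3 for 2 of the 9 members, against 22.5% of all genes. CCL20 was higher under P1-a2, at 4.77 and 7.57 CPM against 1.32 and 1.04 CPM under P2-a8 (log2 fold change 2.39 ± 0.27, adjusted p = 0.000163, and at most 0.00113 over 10 alternatives). CXCL2 was higher under P1-a2 as well (0.55 ± 0.15, adjusted p = 0.0195), but not past the threshold without P2-a8 replicate 1 (0.103) or without P1-a2 replicate 2 (0.122). CXCL1 (-0.04), CXCL3 (-0.10), CXCL5 (0.15), CXCL8 (-0.02) and LIF (0.08) were near 0 on the log2 scale.

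Because the same isoforms were induced in both lines, their responses were compared in a joint fit of 12 libraries as the change in Panc10.05 minus the change in BxPC3. The line, the dose, the control construct and the sequencing project differ together and cannot be told apart. For P1-a2 against NC, 6 of 9 members responded differently, against 36.4% of all genes. The 6 include CXCL3, which had too few reads to be tested in Panc10.05 alone and entered this fit through its BxPC3 libraries. CXCL1 rose in Panc10.05 and fell in BxPC3 (difference in log2 fold change 3.01 ± 0.50, adjusted p = 3.95e-05), and so did LIF (1.49 ± 0.13, adjusted p = 3.78e-09). CXCL8 (2.10 ± 0.36, adjusted p = 0.0001) and CXCL5 (1.93 ± 0.40, adjusted p = 0.000512) fell in BxPC3 without a change past the threshold in Panc10.05. CXCL2 was the reverse case, with its rise in BxPC3 (-0.95 ± 0.25, adjusted p = 0.00407). CXCL3, which is low in Panc10.05, differed as well (1.74 ± 0.58, adjusted p = 0.0211), though not without Panc10.05 P1-a2 replicate 1 (0.0995), Panc10.05 NC replicate 2 (0.0902) or BxPC3 NC replicate 2 (0.0508). IL1A rose past the threshold in Panc10.05 and not in BxPC3, but its difference between the lines was not past the threshold (2.42 ± 1.29, adjusted p = 0.208), nor was that of IL1B (1.88 ± 1.37, adjusted p = 0.358) or CCL20 (1.17 ± 0.74, adjusted p = 0.239). With DESeq2 the differences of IL1A (0.00107) and IL1B (0.0251) were past it. With the replicate number as a block in edgeR they were past it too (8.27e-09 and 0.00217).

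For P2-a8 against NC, 5 of 9 members differed between the lines, against 23.5% of all genes. CXCL5 rose in Panc10.05 and fell in BxPC3 (difference 2.73 ± 0.40, adjusted p = 1.79e-05), and LIF did the same (1.52 ± 0.13, adjusted p = 1.05e-08). Both held in all 13 alternatives. CXCL1 (1.76 ± 0.61, adjusted p = 0.0386), CXCL2 (-0.72 ± 0.26, adjusted p = 0.0447) and CCL20 (2.33 ± 0.83, adjusted p = 0.044) were close to the threshold and were lost in 6, 11 and 6 of 13 alternatives, with adjusted p up to 0.208, 0.134 and 0.214. Leaving out any 1 of the Panc10.05 P2-a8 or NC libraries ended all 3 of these calls (adjusted p between 0.0616 and 0.214), and leaving out BxPC3 P2-a8 replicate 2 did so too (0.06, 0.127 and 0.0764). CXCL1 was also lost without BxPC3 NC replicate 1 (0.0642), CCL20 without BxPC3 NC replicate 2 (0.0917) and CXCL2 without any other BxPC3 library (0.0653 to 0.128). CXCL8 did not pass (1.09, adjusted p = 0.0629) but did in 5 of 13 alternatives, DESeq2 among them (0.0158). The difference between P1-a2 and P2-a8 was itself not different between the lines for any member with edgeR, although 2 members had an unadjusted p under 0.05 and DESeq2 called 2 (CXCL1 at 0.0349 and CXCL8 at 0.0232). In that test edgeR called 22.3% of all genes. No share of all genes is set beside the unadjusted count or the DESeq2 count.

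**Figure D3:**
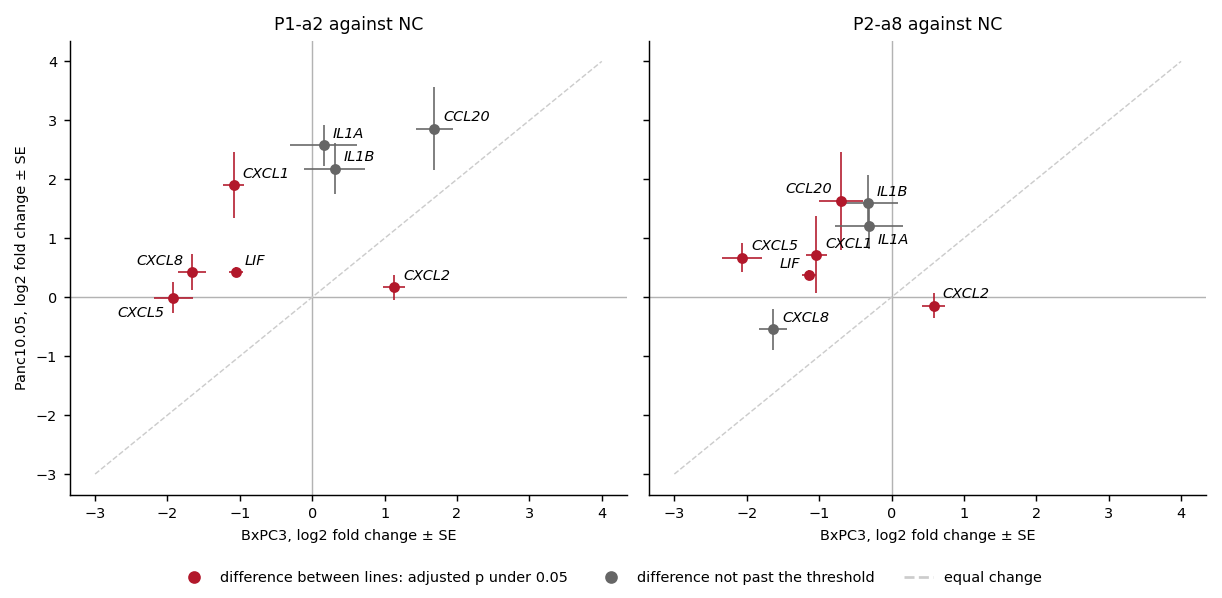
Log2 fold change of each member against NC in BxPC3 (x axis) and Panc10.05 (y axis), for P1-a2 and P2-a8, with error bars of 1 SE. LIF and CXCL1 lie in the upper left part (lower in BxPC3, higher in Panc10.05) in both panels, and IL1A and IL1B near 0 on the BxPC3 axis with wide bars.

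In AsPC-1, the reverse experiment, 9 members were tested (IL6 had at most 1 count in any library). Compared by target, the members that passed against sgNC were CXCL1, CXCL5, CXCL8 and IL1B, all higher. The fit by target took the 4 libraries of a target, 2 from each of 2 guides, as replicates with no term for the guide. Its p-values therefore treat guides as replicates, although guides of 1 target differed for some members, as given below. With sgP2, 3 of 9 members rose, against 3.42% of all genes called and 1.66% called higher. CXCL8 went from 1.08 and 0.706 CPM with sgNC to 7.23 and 4.29 CPM with sgP2D and 5.42 and 3.02 CPM with sgP2G (log2 fold change 2.47 ± 0.50, adjusted p = 0.0192). CXCL5 went from 2.57 and 2.76 CPM to 6.57 and 4.72 CPM with sgP2D and 11.8 and 11.9 CPM with sgP2G (1.72 ± 0.38, adjusted p = 0.0262). CXCL1, at 0.380 and 0.578 CPM with sgNC, was at 2.75 and 1.70 CPM with sgP2D and 3.66 and 3.66 CPM with sgP2G (2.61 ± 0.64, adjusted p = 0.0431). For all 3 chemokines every sgP2 library stood above both sgNC libraries, which held for 15.4% of all genes, and sgP2G gave the higher CXCL1 and CXCL5. LYZ was lower with sgP2 (11.9 to 14.3 CPM) than with sgNC (36.2 to 44.2 CPM), and its part was not tested. IL1A, at 0.919 and 1.35 CPM with sgNC and 1.64 to 3.09 CPM with sgP2, did not pass (1.04 ± 0.30, adjusted p = 0.0696), nor did CXCL3 (0.59 ± 0.26, adjusted p = 0.239) or IL1B (0.47 ± 0.19, adjusted p = 0.206). CCL20 stayed within the range of its sgNC libraries, 0.95 and 2.05 CPM.

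The sgP2 calls rest on both control libraries, and each was also lost without at least 1 of the 2 guides. Without sgNC replicate 1 the adjusted p was 0.322 for CXCL1, 0.235 for CXCL5 and 0.145 for CXCL8, and without sgNC replicate 2 it was 0.231, 0.212 and 0.215. Without a filter on low counts none of the 3 passed (0.134, 0.0862 and 0.0614). Leaving out sgP2D replicate 1 or either sgP2G replicate also ended the CXCL1 call (0.0752 to 0.0864), and leaving out sgP2G replicate 1 the CXCL5 call (0.0522). CXCL1 was lost without guide sgP2D (0.0558) and without guide sgP2G (0.17). Without sgP2G CXCL5 was lost (0.0906), and without sgP2D CXCL8 was (0.063). With only the 2 groups fitted CXCL5 did not pass (0.0639). Over 14 alternatives the log2 fold changes were at least 2.19, 1.08 and 2.20. IL1A passed without sgP2D replicate 2 (0.0458) and with DESeq2 (0.0261). Under scaling by total counts alone, the split of all called genes went from 282 higher and 299 lower to 365 higher and 253 lower.

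With sgP1 no member passed against sgNC in edgeR, where 0.265% of all genes were called. Without adjustment 3 members had a p under 0.05, and DESeq2 called 2, CXCL1 (0.000462) and CXCL8 (0.0253). Neither count has the share of all genes under the same rule beside it. The size of the CXCL1 difference was the same as with sgP2 (log2 fold change 2.62 ± 0.64, adjusted p = 0.131), but the 2 guides disagreed. CXCL1 was at 4.64 and 4.30 CPM with sgP1E and at 1.02 and 1.74 CPM with sgP1J, and that difference between guides passed (sgP1J against sgP1E -1.70 ± 0.30, adjusted p = 0.0018, at most 0.0206 over 10 alternatives). CXCL5 followed with 5.89 and 5.24 CPM for sgP1E and 3.36 and 4.20 CPM for sgP1J (-0.57 ± 0.18, adjusted p = 0.0469, lost in 6 of 10 alternatives, among them without any 1 of the 4 libraries, at 0.0516 to 0.246). CXCL8 was at 4.93 and 2.41 CPM for sgP1E and at 1.90 and 1.48 CPM for sgP1J (-1.14 ± 0.40, adjusted p = 0.0838). These are 2 of 9 members between the guides, against 14.5% of all genes. Without guide sgP1J, CXCL1 passed against sgNC (0.000383) and so did CXCL8 (0.0188), and leaving out sgP1J replicate 1 alone was enough for CXCL1 (0.0176). Under scaling by total counts alone the 45 genes called for sgP1 over the whole table, 17 higher and 28 lower, became 23 higher and 25 lower.

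With sgDual, where HNF4A was lowest, 2 of 9 members rose against sgNC, where 35.6% of all genes were called and 17.8% were called higher. IL1B went from 1.71 and 1.70 CPM with sgNC to 3.99 and 3.52 CPM with sgDual2 and 4.06 and 4.14 CPM with sgDual3 (log2 fold change 1.20 ± 0.19, adjusted p = 0.00025). All 4 libraries were close to each other, and the change was past the threshold in all 14 alternatives (at most 0.007). CXCL8 was at 2.84 and 3.47 CPM with sgDual2 and 2.18 and 2.94 CPM with sgDual3 (1.68 ± 0.50, adjusted p = 0.0191), above both sgNC libraries. In 3 of the 4 sgDual libraries CXCL8 was below every sgP2 library. CXCL1, at 0.804 and 1.47 CPM with sgDual2 and 0.955 and 1.31 CPM with sgDual3, did not pass (1.24 ± 0.66, adjusted p = 0.163). CXCL5 (0.50, adjusted p = 0.317), IL1A (0.38), LIF (0.21, adjusted p = 0.0967) and CXCL2 (-0.54, adjusted p = 0.138) did not pass either. The CXCL8 call was lost without sgNC replicate 1 (0.0784), without sgNC replicate 2 (0.141), without guide sgDual2 (0.0763) and without a filter on low counts (0.0722). Alongside, LYZ was at 51.6 to 76.4 CPM with sgDual and 36.2 to 44.2 CPM with sgNC, while CD3E was at 0 and PTPRC at no more than 0.109 CPM in these groups. The monocyte marker CD14 went the other way without overlap, with means of 1.75 CPM with sgDual and 2.81 CPM with sgNC. Summed fibroblast markers were at 279 to 300 CPM with sgDual and 165 to 179 CPM with sgNC, nearly all of it LUM, with COL1A1 at no more than 0.482 CPM. Summed immediate-early genes were at 297 to 306 CPM against 220 to 227 CPM, and their part was not tested.

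**Figure D4:**
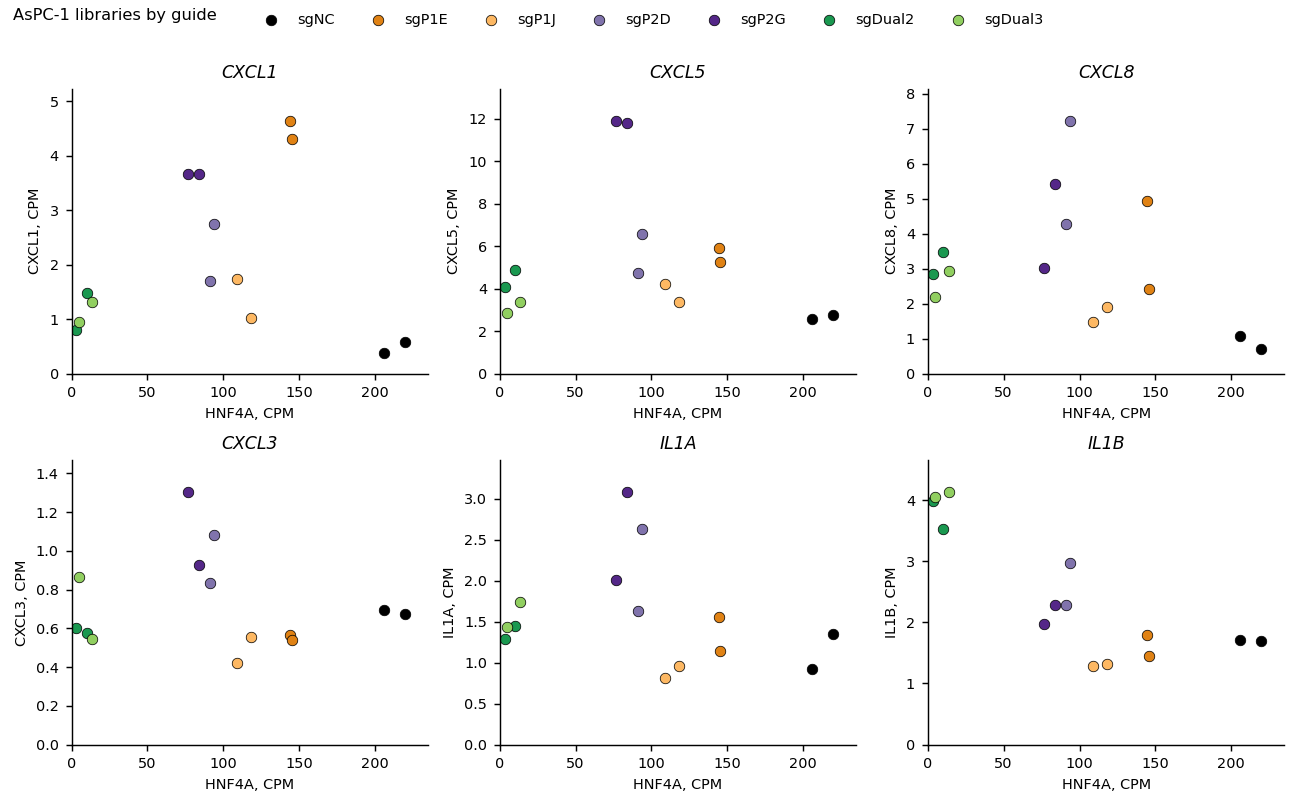
Level of CXCL1, CXCL5, CXCL8, CXCL3, IL1A and IL1B in each AsPC-1 library (y axes, CPM) against HNF4A in the same library (x axes, CPM), with 1 point per library coloured by guide. IL1B is highest at the lowest HNF4A, in sgDual, whereas CXCL1 and CXCL5 peak in sgP1E and sgP2G libraries at intermediate HNF4A.

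The 3 targets were also set against each other. IL1B was higher with sgDual than with sgP1 (log2 fold change 1.41 ± 0.15, adjusted p = 6.72e-06) and than with sgP2 (0.73 ± 0.15, adjusted p = 0.000868), in all 18 alternatives each. CXCL1 was lower with sgDual than with sgP2 (-1.37 ± 0.43, adjusted p = 0.0195), as were CXCL5 (-1.21 ± 0.28, adjusted p = 0.00306), CXCL2 (-1.05 ± 0.22, adjusted p = 0.00113), CXCL3 (-0.68 ± 0.20, adjusted p = 0.0132) and IL1A (-0.66 ± 0.23, adjusted p = 0.028). That is 6 of 9 members, 5 of them lower, where 46.4% of all genes were called and 23.5% were called lower. CXCL2 was at 1.62 and 1.60 CPM with sgP2D and 2.01 and 1.69 CPM with sgP2G, against 0.918 and 1.01 CPM with sgDual2 and 0.895 and 0.517 CPM with sgDual3, without overlap and past the threshold in all 18 alternatives. CXCL1 and IL1A were each lost in 8 of 18 alternatives (adjusted p up to 0.197 and 0.176), 4 and 5 of them with 1 library left out (CXCL1 0.0501 to 0.0558 without either sgP2G replicate, sgDual2 replicate 1 or sgDual3 replicate 1, IL1A 0.059 to 0.118 without either sgDual2 replicate, sgDual3 replicate 1, sgP2D replicate 1 or sgP2G replicate 1). Others were lost less often: CXCL3 in 3 (up to 0.119, and 0.0547 without sgP2G replicate 2) and CXCL5 in 2 (0.0874 without guide sgP2G and 0.0532 without guide sgDual3). CXCL8 was not past the threshold (-0.80 ± 0.34, adjusted p = 0.0715).

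Between sgDual and sgP1, 3 of 9 members differed, against 38.3% of all genes: IL1B as above, LIF higher (0.23 ± 0.08, adjusted p = 0.0305) and CXCL1 lower (-1.38 ± 0.43, adjusted p = 0.0219). LIF was at 143 and 128 CPM with sgDual2 and 118 and 114 CPM with sgDual3, against 95.5 and 103 CPM with sgP1E and 116 and 116 CPM with sgP1J, so the groups overlapped. The LIF call was lost in 7 of 18 alternatives (0.0901 and 0.0638 without sgP1E replicate 1 or 2, 0.108 and 0.0661 without sgDual2 replicate 1 or 2). The CXCL1 difference rested on sgP1E: without that guide it was -0.26 (adjusted p = 0.59), and it was lost in 8 of 18 alternatives, among them without sgP1E replicate 1 (0.0779) or 2 (0.0596), sgDual2 replicate 1 (0.063) or sgDual3 replicate 1 (0.0565). Between sgP2 and sgP1, 3 of 9 members were higher with sgP2, against 4.3% of all genes called and 2.17% called higher: CXCL3 (0.98 ± 0.21, adjusted p = 0.0165), IL1A (1.04 ± 0.23, adjusted p = 0.0213) and IL1B (0.68 ± 0.15, adjusted p = 0.0216). CXCL3 was at 0.833 to 1.31 CPM with sgP2 and at 0.420 to 0.566 CPM with sgP1, and IL1A at 1.64 to 3.09 and 0.807 to 1.56 CPM, without overlap (4.96% of all genes). All 3 fell short when only these 2 groups were fitted (0.0655, 0.0909 and 0.105 in the same order). All 3 also fell short without guide sgP1J (0.061, 0.111 and 0.11). Without guide sgP2G CXCL3 (0.107) and IL1A (0.124) were lost, and without guide sgP2D IL1B was (0.178). IL1A was also lost without sgP2D replicate 1, sgP2G replicate 1 or sgP1J replicate 2 (0.0632 to 0.0763), and IL1B without sgP2D replicate 1 or either sgP1J replicate (0.0508 to 0.077). CXCL1 was equal between the targets (-0.01, adjusted p = 0.996) but was higher with sgP2 when guide sgP1E was left out (1.10, adjusted p = 0.04).

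Against sgNC, each guide was also tested alone, in a fit chosen after the data had been seen. CXCL8 passed for 5 of the 6 guides, from 1.52 (sgDual3, adjusted p = 0.0253) to 2.67 (sgP2D, adjusted p = 0.00352). CXCL1 passed for the same 5 guides, from 1.24 (both sgDual guides, adjusted p = 0.0309 each) to 3.22 (sgP1E, adjusted p = 8.91e-05). CXCL5 passed for sgP1E, sgP2D, sgP2G and sgDual2. IL1B passed for both sgDual guides (1.14 and 1.26) and for no other. IL1A passed for sgP2G (1.17, adjusted p = 0.0284) and LIF for sgDual2 (0.32, adjusted p = 0.00403). CXCL2 was the 1 member to pass as lower, for sgDual3 (-0.79, adjusted p = 0.0497). No member passed for guide sgP1J, with CXCL1 nearest the threshold (1.51, adjusted p = 0.0678). The share of all genes called was 8.62% for sgP1E, 3.04% for sgP1J, 8.52% for sgP2D, 8.16% for sgP2G, 36.9% for sgDual2 and 37.2% for sgDual3. Within targets, sgP2G exceeded sgP2D for CXCL5 (1.08 ± 0.17, adjusted p = 0.00336), the 1 member of 9 to differ, against 1.69% of all genes, and this was lost without sgP2D replicate 2 (0.0515). The sgDual guides did not differ past the threshold for any member with edgeR, which called 0.883% of all genes, or with DESeq2. Without adjustment 2 members had a p under 0.05, with no share of all genes set beside that count.

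Across the 14 AsPC-1 libraries, the genes whose log2 CPM followed CXCL8 most closely, among 10550 genes with a mean of at least 5 CPM, were PHLDB3 (Pearson r 0.943), ILRUN (0.926), BMAL2 (0.920), ALG11 (0.919) and NCK2 (0.918). CXCL5 ranked 271 (r 0.681) and LIF 2547 (r 0.261). The libraries share guides and depth, and r is a description over 14 points with no test.

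The wider pathway was followed through 84 further genes in 5 lists: receptors (11), NF-kB machinery (26), other NF-kB targets (31), the STAT3 pathway (10) and the interleukin-1 family (6). The receptors that hear the chemokines were close to absent. CCR6 had 0 counts in every library, CXCR1 had 0 in BxPC3 and AsPC-1, and CXCR2 had 0 in Panc10.05 and up to 20 counts in a BxPC3 library. The receptors for the cytokines were present: IL1RAP was at 28.6 to 67.6 CPM, IL6ST at 72.5 to 249 CPM and OSMR, which also pairs with IL6ST, at 72.3 to 201 CPM over all libraries. LIFR, which LIF binds, was lower in AsPC-1 (5.27 to 14.7 CPM) than in BxPC3 (36.6 to 42.1 CPM), in tables scaled separately. IL1R1 was higher than in NC under both isoforms in Panc10.05 (log2 fold change 1.14 for P1-a2 and 2.09 for P2-a8, group means 1.34 and 2.63 against 0.624 CPM). In BxPC3 it was lower under both (-1.11 and -1.10, 3.05 CPM each against 6.56 CPM). The difference between the lines was not tested for IL1R1.

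Pathway genes given below as rising or falling were past the threshold. In Panc10.05 under P1-a2, 57 of 67 tested pathway genes changed, 22 upward and 35 downward, against the 62% of all genes given above, with a median of -0.24 against 0.02 over all genes. Of the 26 machinery genes 9 rose and 14 fell. NFKBIA, the main IkB, was at 29.3 against 43.7 CPM (-0.58), NFKB1 at 55.8 against 81.9 CPM (-0.55) and RELB at 52.2 against 64.9 CPM (-0.31), whereas REL rose (9.68 against 4.84 CPM, 1.00). Among targets, the complement gene C3 (24.0 against 3.71 CPM, 2.68), the cytokine IL32 (254 against 65.6 CPM, 1.95) and the kinase gene PIM1 (84.8 against 33.1 CPM, 1.35) rose. LCN2, an iron carrier of inflamed epithelium (1.95 against 9.99 CPM, -2.36), IL23A (2.28 against 9.10 CPM, -2.0) and TNFAIP2 (15.0 against 45.4 CPM, -1.60) fell. Under P2-a8, 47 of 67 changed, 17 upward and 30 downward, against 46.2% of all genes called, 23.7% higher and 22.5% lower, led by C3 (43.8 CPM, 3.55) and by falls of TRAF1 (-1.67) and IL23A (-1.11). SOCS3, the STAT3 feedback inhibitor, fell under P1-a2 (-0.69) and P2-a8 (-0.32), in both of which LIF was higher.

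In BxPC3 under P1-a2, 43 of 76 tested pathway genes changed, 18 upward and 25 downward (median -0.17 against -0.01), where 32% of all genes were called, 17.1% higher and 14.9% lower. IL32 (110 against 11.4 CPM, 3.27), the growth factor CSF2 (1.89 against 0.468 CPM, 1.97) and PIM1 (98.5 against 45.1 CPM, 1.13) rose. C3 fell here (28.3 against 110 CPM, -1.97), the opposite of Panc10.05, and so did LCN2 (19.6 against 64.9 CPM, -1.73), IL36G (-1.73) and the interleukin-1 antagonist IL1RN (39.3 against 80.8 CPM, -1.04). SOCS3 fell as LIF did (18.4 against 39.4 CPM, -1.10). Under P2-a8, 13 of 76 changed and 12 of them fell, against the 2.69% of all genes called lower, among them IL36G (-3.02), LCN2 (-1.96), C3 (-1.88), SAA2 (-1.70), CXCL10 (-1.22) and BIRC3 (-1.17). The 1 rise was PIM1 (0.54), which was lost without P2-a8 replicate 1 (adjusted p = 0.098) and without NC replicate 2 (0.13). Between the isoforms, CSF2 (2.34) and IL23A (1.66) were higher under P1-a2, as CCL20 was.

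In AsPC-1 with sgDual, 29 of 59 tested pathway genes changed against sgNC, 26 upward and 3 downward, where as many of all genes were called lower as higher (17.8% each), and the median was 0.29 against 0.00 over all genes. Of the 17 other NF-kB targets tested, 12 rose. They include LCN2 (336 against 44.8 CPM, 2.91), the macrophage growth factor CSF1 (12.9 against 1.93 CPM, 2.74), C3 (3.40 against 0.543 CPM, 2.64), TNFAIP2 (364 against 138 CPM, 1.40) and BIRC3 (50.1 against 23.1 CPM, 1.12). Of the machinery, NFKBIZ (31.8 against 13.9 CPM, 1.19), RELB (15.5 against 6.99 CPM, 1.14), NFKB2 (60.4 against 33.2 CPM, 0.86) and NFKBIA (37.7 against 24.2 CPM, 0.64) rose, and TRAF2 (-0.53), CHUK (-0.37) and IRAK1 (-0.26) fell, the last 2 being lost in 5 and 6 of 14 alternatives. The count was between 12 and 25 when 1 library was left out, with 12 without sgNC replicate 1. The counts with 1 library left out, here and for sgP2 below, have no share of all genes beside them. With sgP2, 5 of 59 tested pathway genes passed, 2 higher and 3 lower, against 3.42% of all genes. PLAU, a protease gene, was at 133 against 48.0 CPM (1.47) and RIPK1 at 31.7 against 46.1 CPM (-0.54), and the other 3 were IL1RAP (0.36), IL6R (-0.70) and IRF1 (-0.44). When 1 library was left out this count was between 0 (without sgNC replicate 1) and 4, and it was 1 without sgNC replicate 2, sgP2D replicate 1 or either sgP2G replicate. With sgP1 none of the 59 passed with edgeR, which called 0.265% of all genes, or with DESeq2. Without adjustment 5 had a p under 0.05, with no share of all genes set beside that count.

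**Figure D5:**
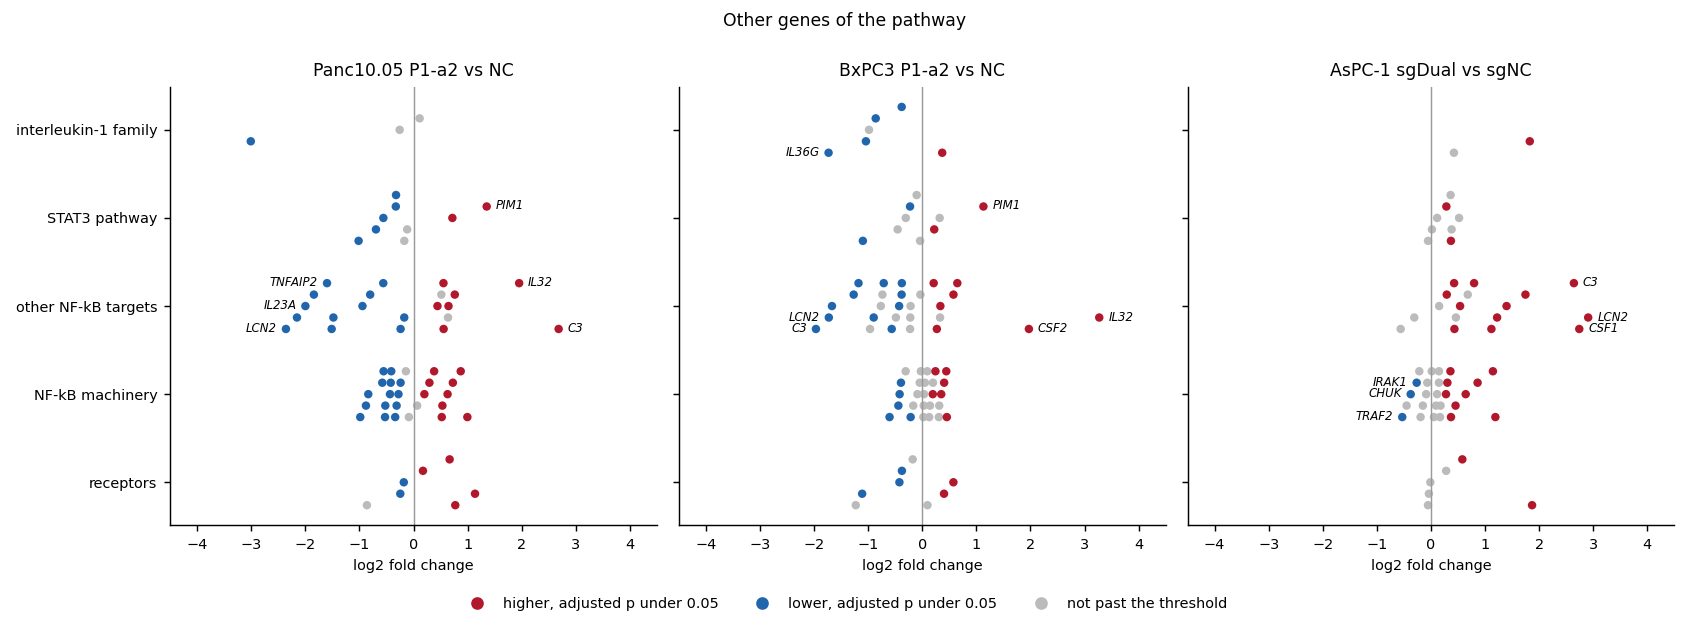
Log2 fold change of the tested pathway genes in each list (1 point per gene, red or blue where the adjusted p was under 0.05 and grey elsewhere) for P1-a2 against NC in Panc10.05 and BxPC3 and for sgDual against sgNC in AsPC-1. The targets in AsPC-1 are spread above 0, with 12 of 17 red and none blue, whereas those of both induced lines fall on both sides.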

How the data were processed

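The authors deposited 1 table of raw counts per gene for each cell line, whole numbers with no normalization, and these were used as deposited. Per the submitters' processing notes, cutadapt 1.16, STAR 2.7.9a, featureCounts 1.6.3, DESeq2 1.36.0 and GRCh38 were used. The annotation, the strand setting and the handling of reads that map to several genes are not given in the sources used here. Libraries were grouped by genotype label, and symbols matched 99.88% of identifiers in Panc10.05 and BxPC3 and 99.91% in AsPC-1. The members and all gene lists were chosen with earlier results of these data known.

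Within each table, genes were kept by filterByExpr (17247, 17635 and 16992 genes), TMM (trimmed mean of M-values) scaling was applied, and groups were compared with edgeR's quasi-likelihood test in its robust form in 1 fit of all groups. Benjamini-Hochberg adjustment covered all genes tested. Each SE is the size of the log2 fold change over the square root of F. CPM use the TMM scaling, and RPKM use exon lengths of GENCODE v29. Guides were compared in a fit of 7 groups, and Panc10.05 with BxPC3 in 1 fit of 12 libraries. In each comparison up to 3 risen and 3 fallen pathway genes, those past the threshold that moved farthest at a mean of at least 1 CPM with no overlap between groups, were named by rule, as were the 5 genes most correlated with CXCL8. Other pathway genes were chosen after their values were seen.

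Alternatives were DESeq2's size factors, total counts alone, no filter on low counts, DESeq2, the replicate number as a block, a fit of only the 2 groups, and leaving out each library or guide. Between replicates, a chi-square over genes per degree of freedom was 5.08 to 24.07, so none was counted as a duplicate. The tests were tested on simulated counts. Tables and figures were made in Python 3.11.15 (scipy 1.17.1, numpy 2.4.6, matplotlib 3.10.9 and pandas 2.3.3). Fits used DESeq2 1.42.0 and edgeR 4.0.16 with limma 3.58.1 under R 4.3.3.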

Additional observations from a re-analysis of the deposited data

Results flagged for a closer look

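Responses to the same isoform that differed between Panc10.05 and BxPC3 in the joint test were those of 6 members for P1-a2 against NC and 5 for P2-a8 against NC, given as the change in Panc10.05 minus that in BxPC3 on the log2 scale. For P1-a2 they were 3.01 for CXCL1, 2.10 for CXCL8, 1.93 for CXCL5, 1.74 for CXCL3, 1.49 for LIF and -0.95 for CXCL2. For P2-a8 they were 2.73 for CXCL5, 2.33 for CCL20, 1.76 for CXCL1, 1.52 for LIF and -0.72 for CXCL2. CXCL1, CXCL2, CXCL5 and LIF were in both sets, which share the NC libraries of each line. CXCL3 had too few reads to be tested in Panc10.05 alone and entered the joint test through its BxPC3 libraries.

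In AsPC-1 with sgP1, the lowest of 4 libraries for CXCL3 (0.420 CPM, sgP1J replicate 2) stood apart from the other 3 by Dixon's criterion. It was the 1 such case among 27 groups of 4 examined, and chance gives about 1 in 20.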

How the results depend on the processing

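Of 1992 alternative values of 159 member log2 fold changes, 1791 kept their direction and side of the threshold, or changed sign with neither value past it (63 of these), 137 lost the call, 63 gained it and 1 turned: CXCL1 with sgP2 against sgP1 was 1.1 without guide sgP1E. The member and pathway counts of this section are given without the share of all genes called under the same setting. They show how the calls moved and not whether they exceed that share. Counts of members called moved with DESeq2 from 4 to 2 (Panc10.05 P2-a8), from 4 to 1 (P1-a2 against P2-a8), from 0 to 2 (sgP1) and from 3 to 5 (sgP2 against sgP1). Without a filter they were 0 for sgP2, 1 for sgDual and 2 for sgP2G against sgP2D. With only the 2 groups fitted they were 0 for sgP2 against sgP1 and 1 for sgP1J against sgP1E.

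With 1 library left out, member counts ran from 1 to 4 (Panc10.05 P2-a8), 1 to 3 (Panc10.05 isoforms), 1 to 2 (BxPC3 isoforms), 0 to 1 (sgP1), 0 to 4 (sgP2), 1 to 2 (sgDual), 1 to 4 (sgP2 against sgP1), 1 to 3 (sgDual against sgP1), 1 to 2 (sgP1J against sgP1E) and 0 to 1 (sgP2G against sgP2D). Differences between the lines ran from 2 to 5 for P2-a8 and from 0 to 2 for P1-a2 against P2-a8, where DESeq2 and no filter gave 2 each. Without a guide, members called were 2 for sgP1 (no sgP1J), 1 for sgP2 (no sgP2D or no sgP2G), 1 for sgDual (no sgDual2), 6 and 1 for sgP2 against sgP1 (no sgP1E, no sgP2G), 1 for sgDual against sgP1 (no sgDual2), and 2, 3 and 3 for sgDual against sgP2 (no sgP2G, sgDual2 or sgDual3). For 1 guide alone they were 3 (sgP1E), 5 (sgDual2) and 4 (sgDual3).

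Pathway counts were 23 for BxPC3 P2-a8 and 3 for sgP2 without a filter, 10 (sgP2) and 11 (sgP2 against sgP1) with DESeq2, and 9 and 2 with only the 2 groups fitted. With 1 library left out they ran from 17 to 26 (BxPC3 isoforms), 0 to 1 (sgP1), 0 to 4 (sgP2), 12 to 25 (sgDual) and 1 to 10 (sgP2 against sgP1). Without guides sgP1E and sgP1J they were 2 and 4 for sgP1, without sgP2D and sgP2G 1 and 3 for sgP2, and without sgP1E, sgP2D and sgP2G 16, 0 and 2 for sgP2 against sgP1. They were 4, 2 and 11 for sgP1E, sgP1J and sgP2D alone.

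Same-numbered replicates deviated together in every pair of BxPC3, weakly (correlation 0.073 to 0.131), and in every pair of AsPC-1 (0.077 to 0.339). In AsPC-1 the pairs without sgDual were at 0.217 to 0.339. In Panc10.05 they did not (-0.012 to 0.007). The labels do not say that the numbers mark a batch or day, and the main fits did not use them to pair the libraries. With the replicate block, members called were 8 for BxPC3 P2-a8, 4 for the BxPC3 isoforms and 4 for sgP1J against sgP1E, differences between the lines were 8 for P2-a8 and 3 for P1-a2 against P2-a8, and pathway counts were 30 and 43 for the same BxPC3 comparisons, 8 for sgP2 and 10 for sgP2 against sgP1. The share of all genes called with the block is not set beside these counts. IL1A and IL1B in BxPC3 then passed for P1-a2 (0.0152 and 0.0121) and P2-a8 (0.000557 and 0.0319), and between the isoforms (1.32e-06 and 0.000214). The cause of these shifts was not tested.

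Depth limits the low members: IL6 in all lines, CXCL3 and CCL20 in Panc10.05 and CXCL1 in AsPC-1 sgNC (12 and 18 counts) rest on few reads. No scaling moved the median of all genes by more than 0.1 on the log2 scale.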
